A study of Mus musculus with 6 samples.

Results

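The genes described here are 10 members of the network of transcription factors built around MYC and its partner MAX: Myc, Mycl, Max, Mxd1, Mxd3, Mxd4, Mxi1, Mnt, Mga and Mlx. They were chosen by name from the 55536 genes of each table, which were matched to symbols through the mouse annotation GENCODE M21, and all 10 were found. Their RNA was measured by bulk sequencing of RAW264.7, a transformed macrophage line from mouse whose cells become osteoclasts, the cells that resorb bone, when they meet the cytokine RANKL. RANKL at 50 ng/mL was present in all 6 samples. To 3 of them etelcalcetide, a synthetic peptide that switches on the receptor for extracellular calcium, had been added at 4 µM. Cells without RANKL were not analysed here, and both groups are of this 1 line. Exposure lasted 5 days by the series design, but by the sample labels it was 5 days for replicate 1, 6 for replicate 2 and 7 for replicate 3 in either group. By these labels, differences between replicates and between days cannot be told apart within a group. Whether replicates were grown as separate cultures is not labelled. The p-values thus reflect how far these samples spread, which may be technical.

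MYC proteins bind DNA as dimers with MAX, mainly at the hexamer CACGTG (the E-box), and promote genes of growth, nucleotide synthesis and ribosome production. The proteins encoded by Mxd1, Mxd3, Mxd4, Mxi1 and Mnt compete for MAX and for the same sites and recruit histone deacetylase complexes that lower transcription. MGA is a further MAX partner that works within a Polycomb repressor complex, and MLX is a MAX-like hub that pairs with some MXD proteins and with the glucose-sensing factors MondoA and ChREBP. In osteoclast precursors MYC is known as a factor that RANKL induces and that osteoclast formation needs.

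Promoter windows from RefSeq (build GRCm38.p6, 250 bases before to 50 bases after the gene start) were present for 9 of the 10 members; Myc had none. Of these 9 genes, 4 held CACGTG, a palindrome that reads the same on both strands. The 4 stretches around the motif are shown because they place the network's own binding hexamer at the start of network genes or in front of it. Capitals mark the motif, and each stretch reads 5′ to 3′ on the strand of its gene, at chr12:76962246-76962291 (Max, minus strand), chr11:101087210-101087289 (Mlx, plus strand), chr11:74830761-74830846 (Mnt, plus strand) and chr5:34187884-34187960 (Mxd4, minus strand).
Max: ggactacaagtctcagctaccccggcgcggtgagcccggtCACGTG
Mlx: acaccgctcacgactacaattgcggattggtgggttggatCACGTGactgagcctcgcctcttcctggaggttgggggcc
Mnt: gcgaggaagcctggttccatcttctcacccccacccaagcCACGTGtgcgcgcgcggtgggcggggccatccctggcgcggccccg
Mxd4: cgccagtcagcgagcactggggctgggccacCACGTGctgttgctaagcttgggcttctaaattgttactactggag

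The motif began 3 bases before the RefSeq start of Max and thus ran across that start. It began 40 bases before the start of Mlx, 123 before that of Mnt and 219 before that of Mxd4. In M21 the stretches of Max, Mnt and Mxd4 lay outside any gene, and that of Mlx ran into the first bases of Mlx itself. No window of Mycl, Mxd1, Mxd3, Mga or the 3 alternative starts of Mxi1 held these letters. Among all 27025 genes with a window, 8.09% held the motif, and among the 8357 of them that were tested for expression 12.3% did. A match is a description of sequence and not evidence of binding.

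The comparison asked how the RNA levels of the network differed when etelcalcetide was added to RANKL. Of the 10 members, 4 rose (Mxd1, Mxd3, Mxd4 and Mlx), 3 fell (Myc, Max and Mga), 2 did not pass (Mxi1 and Mnt) and Mycl was too low to test. Across all 11120 tested genes 53.0% passed a limma test at 0.05 after Benjamini-Hochberg adjustment, with 26.0% up and 27.0% down, so a count of 7 among 9 tested members has to be read against a background in which most genes moved. Scaled by library totals alone, 3558 genes were up and 2272 down in place of 2896 and 2998, and 6 members rose. The median log2 fold change was 0.19 over the 9 tested members and -0.01 over all tested genes. In the deposited FPKM values (reads scaled by exon length and library total) the groups did not overlap for any of the 10 members, against 61.2% of all tested genes. Treated values were higher for 6 members and lower for 4, against 36.7% and 24.5% of all tested genes. After division by the scaling factors between libraries the groups of Mnt overlapped and those of the other 9 did not, against 61.9% of all tested genes.

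**Figure D1:**
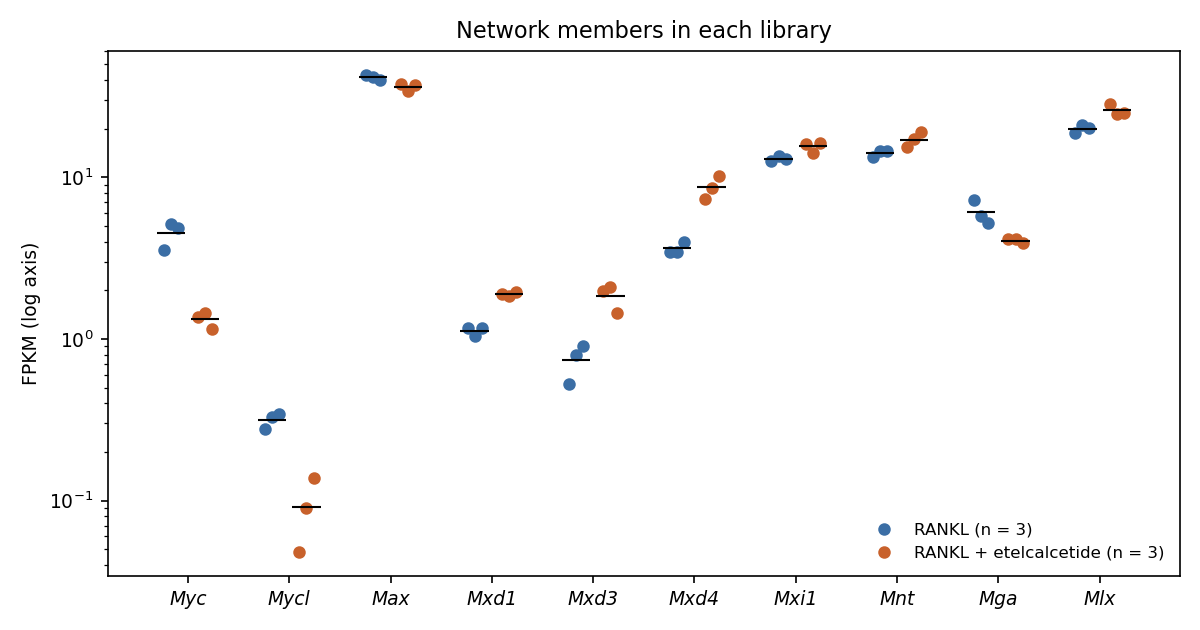
FPKM of the 10 members in each library on a log axis, with 3 RANKL libraries (blue) and 3 RANKL plus etelcalcetide libraries (orange) per gene and a black line at the group mean. Max is the highest member and Mycl the lowest in both groups, and Myc drops from 4.51 to 1.32 FPKM on average.

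Myc (ENSMUSG00000022346, chromosome 15, 61985391 to 61990374) is the founding member and the main growth-promoting partner of MAX. It stood at 3.52, 5.17 and 4.84 FPKM in RANKL replicates 1, 2 and 3 and at 1.36, 1.45 and 1.15 FPKM in etelcalcetide replicates 1, 2 and 3. Every treated library was thus below every RANKL library, and RANKL replicate 1 was the lowest of its group. The mean of Myc fell from 4.51 ± 0.872 FPKM (SD, n = 3 in each group) to 1.32 ± 0.150 FPKM, a log2 fold change of -1.76 on the log2(FPKM + 0.1) scale (SE 0.162, limma adjusted p = 3.82e-05). It was among the 156 of 11120 genes with the lowest log2 fold changes. The values rest on 560 reads in the RANKL group and 162 in the treated group. With a pseudocount of 1 FPKM the log2 fold change was -1.29.

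Mycl encodes L-MYC, a MYC relative with more limited expression (ENSMUSG00000028654, chromosome 4, 122995652 to 123002485). It was listed at 0.276, 0.328 and 0.341 FPKM in the RANKL libraries and at 0.0482, 0.0901 and 0.137 FPKM in the treated libraries. These are 17, 21 and 20 reads against 3, 5 and 9, so the groups did not overlap but the depth was low. Mycl missed the minimum of 0.5 FPKM in every library. The depth-adjusted ratio of RANKL to treated reads was 3.59, with a 95% exact conditional interval of 2.06 to 6.58 that covers counting error only. The two-sided exact permutation test gave p = 0.1, the smallest value that 3 libraries against 3 allow. When no filter was applied, the log2 fold change was -1.18 (SE 0.282, limma adjusted p = 0.0239).

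Mycn, another gene of the family, is not one of the 10 members but sets their scale. It encodes N-MYC, which also dimerises with MAX. Mycn stood at 285, 286 and 319 FPKM in the RANKL libraries and at 282, 286 and 297 FPKM in the treated libraries. In these deposited values the groups overlapped. After division by the scaling factors every treated library was below every RANKL library, and 61.9% of all tested genes did not overlap on that scale. It did not pass the test (log2 fold change -0.12, 95% interval -0.25 to 0.01, limma adjusted p = 0.113). Per unit of exon length, Mycn RNA was 55.3 to 80.8 times as abundant as Myc RNA in the RANKL libraries and 198 to 257 times as abundant in the treated libraries. Myc made up 1.5% ± 0.276 of the summed FPKM of Myc, Mycl and Mycn with RANKL and 0.457% ± 0.0613 with etelcalcetide (SD, n = 3 per group). Pvt1, the long noncoding RNA gene next to Myc, fell from 0.663 ± 0.0666 to 0.374 ± 0.110 FPKM (limma log2 fold change -0.78 with a standard error of 0.232; adjusted p = 0.0200). Pvt1 passed the filter only through the RANKL libraries, so its groups had to lie apart, and it rests on 212 and 119 reads. It did not pass without etelcalcetide replicate 1 (limma adjusted p = 0.0640) or when all genes with a read were tested (limma adjusted p = 0.0950).

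Max, the shared partner without a transactivation domain of its own, was the most abundant member (ENSMUSG00000059436, chromosome 12, 76937269 to 76962201). It stood at 43.1, 41.8 and 39.9 FPKM with RANKL and at 37.6, 34.0 and 37.1 FPKM with etelcalcetide. The groups were apart but close. Max fell from 41.6 ± 1.63 to 36.2 ± 1.95 FPKM (limma log2 fold change -0.28 with a standard error of 0.0562; adjusted p = 0.00300). Since Max fell by less than Myc, the Myc to Max ratio of FPKM values went from 0.0817, 0.124 and 0.121 in the RANKL libraries to 0.0362, 0.0425 and 0.0311 in the treated libraries. The Mycn to Max ratio ranged from 6.60 to 8.0 with RANKL and from 7.51 to 8.41 with etelcalcetide, so the 2 ranges overlapped.

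Of the 5 MAX-binding repressor genes, 3 rose (Mxd1, Mxd3 and Mxd4) and 2 did not pass, where 26.0% of all tested genes rose. Mxd4 encodes MAD4, a MAX partner linked to cells leaving the cycle (ENSMUSG00000037235, chromosome 5, 34173883 to 34187720). It stood at 3.46, 3.45 and 3.97 FPKM with RANKL and at 7.31, 8.53 and 10.2 FPKM with etelcalcetide. The lowest treated library was above the highest RANKL library by a wide margin, and the treated libraries varied more among themselves. Mxd4 rose from 3.63 ± 0.295 to 8.68 ± 1.46 FPKM (limma log2 fold change 1.15 with a standard error of 0.121; adjusted p = 8.57e-05). The antisense gene that covers 6.06% of its exon length had 0 reads in every library. The Mxd4 to Myc ratio of FPKM values was 0.983, 0.668 and 0.820 in the RANKL libraries and 5.37, 5.90 and 8.86 in the treated libraries.

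Mxd3 encodes MAD3, the family member known for expression in the S phase of dividing cells (ENSMUSG00000021485, chromosome 13, 55325168 to 55329823). It stood at 0.526, 0.798 and 0.901 FPKM with RANKL and at 1.97, 2.09 and 1.45 FPKM with etelcalcetide. All treated libraries were above all RANKL libraries, at low depth (80 reads against 196). Mxd3 rose from 0.741 ± 0.194 to 1.84 ± 0.338 FPKM (limma log2 fold change 1.14 with a standard error of 0.217; adjusted p = 0.00219). Prelid1 on the other strand covers 4.43% of its exon length and is far more abundant, at 110 ± 9.03 and 151 ± 2.69 FPKM. Whether counting used strand is not stated in the labels, and the part of such reads in the values of Mxd3 was not tested.

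Mxd1 encodes MAD1, which replaces MYC at MAX in differentiating myeloid cells (ENSMUSG00000001156, chromosome 6, 86647042 to 86669161). It stood at 1.17, 1.04 and 1.17 FPKM with RANKL and at 1.90, 1.85 and 1.96 FPKM with etelcalcetide, with little spread in either group. Mxd1 rose from 1.13 ± 0.0726 to 1.90 ± 0.0522 FPKM (limma log2 fold change 0.63 with a standard error of 0.121; adjusted p = 0.00222). With a pseudocount of 1 FPKM the log2 fold changes of these low genes were smaller, 0.40 for Mxd1 and 0.66 for Mxd3, and both still passed.

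Mxi1 and Mnt, the more abundant MAX-binding repressors, did not pass. Mxi1, also known as MXD2 (ENSMUSG00000025025, chromosome 19, 53310518 to 53375810), stood at 12.5, 13.5 and 13.0 FPKM with RANKL and at 15.9, 14.2 and 16.4 FPKM with etelcalcetide. Its log2 fold change was 0.17 (SE 0.0669, limma adjusted p = 0.0590). Mnt, a broadly expressed antagonist of MYC (ENSMUSG00000000282, chromosome 11, 74830920 to 74845725), stood at 13.4, 14.6 and 14.4 FPKM with RANKL and at 15.3, 17.1 and 18.9 FPKM with etelcalcetide. Its log2 fold change was 0.19 (SE 0.0821, limma adjusted p = 0.0813). The treated values of either gene lay above the RANKL values before scaling, and the calls depended on the setting. When libraries were scaled by their totals alone both passed (limma adjusted p = 0.0162 for Mxi1 and 0.0235 for Mnt). Mxi1 also passed without etelcalcetide replicate 2 (limma adjusted p = 0.0414) and with voom, which weights reads by their precision (limma adjusted p = 0.0366). Mnt also passed without etelcalcetide replicate 1 (limma adjusted p = 0.0173).

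**Figure D2:**
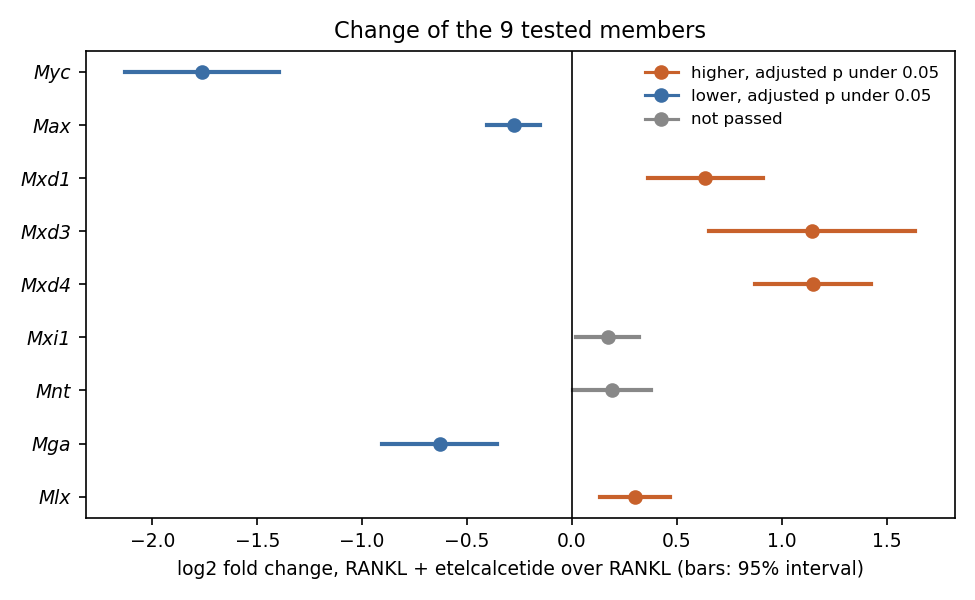
Log2 fold change of each tested member on the log2(FPKM + 0.1) scale, RANKL plus etelcalcetide over RANKL, with 95% intervals that are not adjusted for the number of genes. Myc lies farthest below 0 at -1.76, Mxd4 and Mxd3 lie above 1, and the 2 grey genes, Mxi1 and Mnt, did not pass after adjustment.

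Mga encodes a large scaffold protein that pairs with MAX inside the repressor complex PRC1.6 (ENSMUSG00000033943, chromosome 2, 119897228 to 119969581). It stood at 7.19, 5.78 and 5.17 FPKM with RANKL and at 4.14, 4.14 and 3.89 FPKM with etelcalcetide. The treated libraries were close together, below all RANKL libraries, of which replicate 1 was the highest. Mga fell from 6.05 ± 1.04 to 4.06 ± 0.143 FPKM (limma log2 fold change -0.63 with a standard error of 0.121; adjusted p = 0.00232).

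Mlx (ENSMUSG00000017801, chromosome 11, 101087277 to 101092207) was the most abundant member after Max. It stood at 18.8, 21.1 and 20.1 FPKM with RANKL and at 28.5, 24.6 and 25.01 FPKM with etelcalcetide, and the groups did not overlap. Mlx rose from 20.0 ± 1.15 to 26.1 ± 2.13 FPKM (limma log2 fold change 0.30 with a standard error of 0.0731; adjusted p = 0.00786). Of its exon length 19.3% is shared with Psmc3ip on the other strand, which fell from 10.3 ± 0.612 to 7.21 ± 0.417 FPKM. Mlxip, which encodes MondoA, a glucose-responsive partner of MLX, rose from 11.8 ± 0.791 to 15.2 ± 0.810 FPKM (limma adjusted p = 0.00926, and 0.0528 without etelcalcetide replicate 2). Mlxipl, which encodes the paralogous partner ChREBP, had 5 reads in all with RANKL and 9 with etelcalcetide, too few to test.

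By mean FPKM the top of the order of the 10 members was the same in both groups. From the top these were Max, Mlx, Mnt and Mxi1 in either group. With RANKL these were followed by Mga, Myc, Mxd4, Mxd1, Mxd3 and Mycl, and with etelcalcetide by Mxd4, Mga, Mxd1, Mxd3, Myc and Mycl. Myc therefore went from rank 6 to rank 9 and Mxd4 from rank 7 to rank 5. Several neighbours overlapped in FPKM: Mnt and Mxi1 in both groups, Myc and Mxd4 in the RANKL group, and Mxd1 and Mxd3 in the treated group. The lowest treated value of Mxd3 and the highest of Myc were both 1.45 FPKM after rounding. As shares of the summed FPKM these 2 genes overlapped in the treated group. Compared across libraries, the rank of Myc below Mxd3 thus does not exceed the spread. Within each treated library Mxd3 was above Myc, at 1.97, 2.09 and 1.45 FPKM against 1.36, 1.45 and 1.15 FPKM. This difference was not tested.

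The share of Myc was 4.28% ± 0.782 with RANKL and 1.17% ± 0.173 with etelcalcetide, and that of Max 39.6% ± 1.64 and 32.1% ± 0.776 (SD, n = 3 per group). Mxd4 took 3.45% ± 0.323 and 7.70% ± 1.21. The 5 repressor genes Mxd1, Mxd3, Mxd4, Mxi1 and Mnt together summed to 31.1, 33.3 and 33.5 FPKM with RANKL and to 42.4, 43.8 and 48.9 FPKM with etelcalcetide. Their sum relative to Max was 0.722, 0.797 and 0.841 with RANKL and 1.13, 1.29 and 1.32 with etelcalcetide, so that it was below Max in every RANKL library and above it in every treated library. Myc relative to the same sum went from 0.138 ± 0.0218 to 0.0296 ± 0.00518. These sums hold genes described above and were not tested. All these shares and ratios leave out Mycn, which also encodes a MAX partner. Mycn stood at 282 to 319 FPKM, above the 104 to 116 FPKM of all 10 members together. The values of Myc here are thus not those of the whole MYC family.

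**Figure D3:**
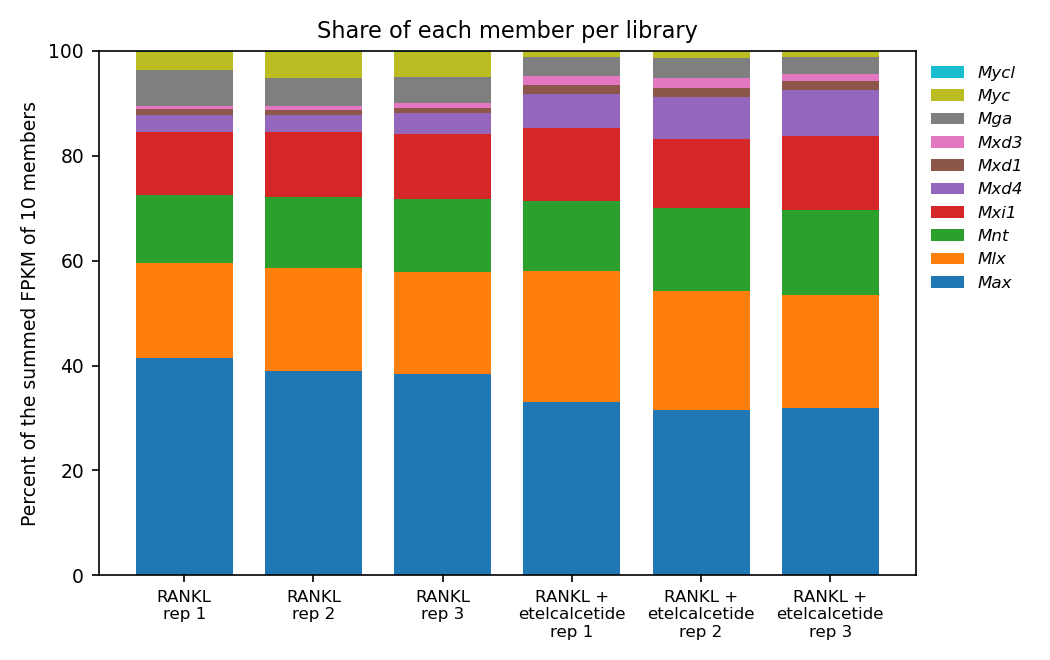
Share of each member in the summed FPKM of the 10 members, 1 bar per library, in percent. Max takes 38.4% to 41.4% with RANKL and 31.4% to 33.0% with etelcalcetide, while the band of Mxd4 widens and that of Myc narrows.

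The cells were checked against their labels. Macrophage markers were abundant as a sum, with 9 markers summing to 2646 to 2799 FPKM with RANKL and 2979 to 3137 FPKM with etelcalcetide. Lyz2 alone stood at 1748 ± 116 and 1830 ± 69.3 FPKM, while Mertk had 10 and 17 reads in all, too few to test. Of the 8 tested 4 rose, against 26.0% of all tested genes, and 4 did not pass. The 9 osteoclast markers summed to 392 to 538 FPKM with RANKL and to 205 to 218 FPKM with etelcalcetide. Calcr had 8 reads in all with RANKL and 0 with etelcalcetide, too few to test. Of the 8 tested 6 fell, against 27.0% of all tested genes. Of these 6, Ctsk, Atp6v0d2 and Oscar passed the filter only through the RANKL libraries, where they are high, so they had to differ. The 2 tested markers that did not pass were Dcstamp, at 20.7 ± 3.09 and 21.7 ± 0.819 FPKM, and Mmp9, at 158 ± 21.7 and 163 ± 8.04 FPKM. RANKL replicate 1 was lowest of its group for Myc and also for the osteoclast marker Ctsk, at 69.1 FPKM against 114 and 100.0 FPKM. This replicate was highest of its group for Max and Mga, and by the labels it had the shortest exposure. The part of the shift in osteoclast markers in the values of the members was not tested. In bulk RNA fewer cells of a type and less RNA per cell cannot be told apart. Of the 30 markers of fibroblasts and osteoblasts, lymphocytes, epithelium and endothelium, erythroid cells and neutrophils, none was above 0.685 FPKM in any library, and 14 of them, among them Cd3e, Krt8 and Mpo, were at 0 reads throughout.

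Textbook genes activated by MYC were mostly lower. Of 42 listed and tested, 30 fell, 2 rose and 10 did not pass, with a median log2 fold change of -0.27 against -0.01 for all tested genes, of which 27.0% fell. Odc1, the first enzyme of polyamine synthesis and a classic MYC target, fell from 87.7 ± 5.62 to 49.9 ± 2.54 FPKM (limma log2 fold change -0.89 with a standard error of 0.0643; adjusted p = 9.27e-06). Tfap4, a transcription factor induced by MYC, fell from 21.1 ± 0.728 to 13.6 ± 0.226 FPKM, Hspd1, a mitochondrial chaperonin, from 344 ± 23.0 to 214 ± 17.02 FPKM, and Nolc1, a nucleolar phosphoprotein, from 99.8 ± 2.38 to 74.8 ± 3.15 FPKM. The 2 that rose, named after their values were seen, were Eif4a1, a translation initiation helicase, at 308 ± 4.83 and 364 ± 10.1 FPKM, and Ccnd2, cyclin D2. Ccnd2 had 15 reads in all with RANKL and 308 with etelcalcetide. It passed the filter only through the treated libraries, where it is higher, so it had to differ. None rose without etelcalcetide replicate 1 or 2, and 1 rose without etelcalcetide replicate 3, since Ccnd2 then had too few libraries past the filter and Eif4a1 did not pass without replicate 1 or 2 (limma adjusted p = 0.0598 and 0.0558). Between 26 and 31 fell when 1 library was left out, and with library totals alone 22 fell and 3 rose. The direction of the list was known from earlier results, so its count is not independent evidence.

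Genes known to be repressed by MYC showed no common direction. Of 9 listed, 6 were tested, 2 rose and 0 fell, with a median of 0.03, where 26.0% of all tested genes rose. Gadd45a, a DNA damage and stress gene, had 11 reads in all with RANKL and 58 with etelcalcetide. It passed the filter only through the treated libraries, where it is higher, so it had to differ (log2 fold change 1.76). It could not be tested when any treated library was left out, and 1 gene of this list then rose. Ddit3, the stress factor CHOP, rose from 3.34 ± 0.210 to 4.69 ± 0.402 FPKM. The cell cycle inhibitor Cdkn1a stood at 27.8 ± 2.41 and 28.7 ± 2.76 FPKM (95% interval of the log2 fold change -0.24 to 0.17) and Ndrg1, a differentiation-associated gene, at 13.8 ± 1.23 and 15.04 ± 0.173 FPKM (95% interval -0.13 to 0.21).

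**Figure D4:**
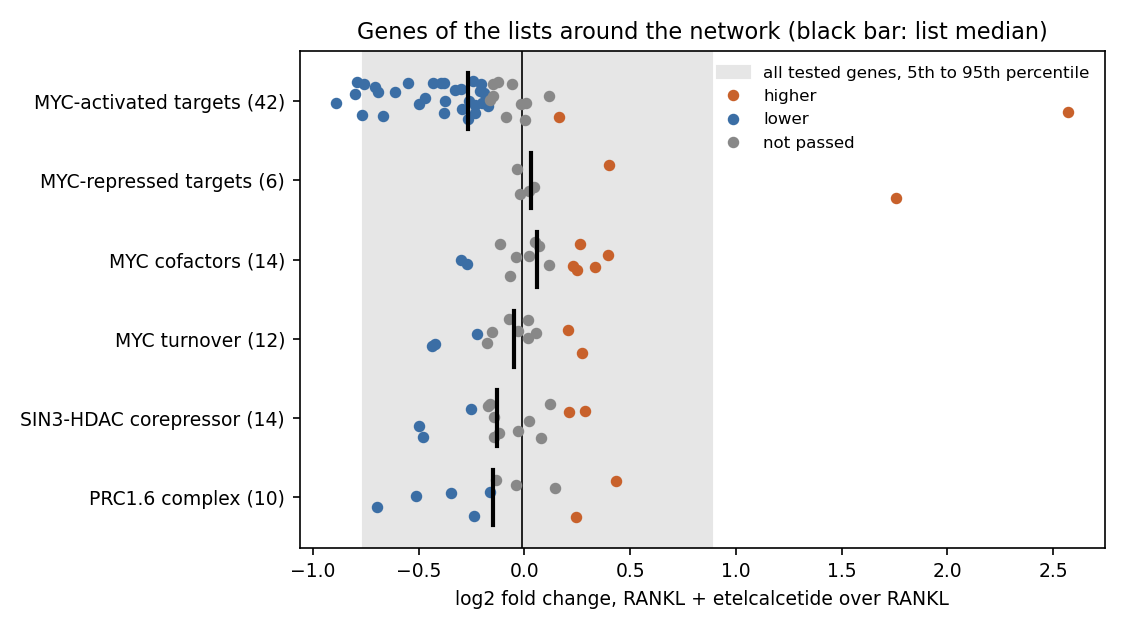
Log2 fold change of each tested gene of 6 lists, coloured by its call (limma adjusted p under 0.05), with a black bar at the list median, a thin line at the median of all tested genes (-0.01) and a grey band from the 5th to the 95th percentile of all tested genes. The MYC-activated targets lie mostly left of 0 with a median of -0.27, while the other 5 medians lie between -0.15 and 0.06.

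Genes whose products work with MYC or control its stability held calls in both directions. Of 14 cofactor genes 5 rose, 2 fell and 7 did not pass (median 0.06), against 26.0% higher and 27.0% lower among all tested genes. Trrap, the scaffold that links MYC to histone acetyltransferases, rose from 10.5 ± 0.283 to 14.6 ± 0.640 FPKM, and the acetyltransferase gene Kat2a from 26.9 ± 1.73 to 35.8 ± 0.979 FPKM. Ruvbl1, an ATPase of chromatin complexes, fell from 48.9 ± 2.37 to 42.7 ± 0.826 FPKM. Further cofactor genes that changed, outside the rule for named genes, were Actl6a at -0.30, Smarcb1 at 0.25 and Paf1 at 0.23 on the log2 scale. Of 12 genes for MYC turnover 2 rose, 3 fell and 7 did not pass (median -0.05), a called share below the 53.0% of all tested genes, and with library totals alone 2 rose and 1 fell. Leaving out 1 library at a time gave 1 to 2 higher and 2 to 4 lower, with 1 higher without RANKL replicate 2, etelcalcetide replicate 1 or etelcalcetide replicate 3 and 2 lower without any 1 of the etelcalcetide replicates. Usp36, a nucleolar deubiquitinase that stabilises MYC, fell from 10.7 ± 0.625 to 8.33 ± 0.0936 FPKM and Aurka, a mitotic kinase, from 52.6 ± 2.08 to 47.6 ± 2.13 FPKM, the latter not passing with library totals alone (limma adjusted p = 0.0578). Trpc4ap and Stub1, which encode parts of ubiquitin ligases that act on MYC, rose by 0.21 and 0.27 on the log2 scale. Trpc4ap did not pass without etelcalcetide replicate 3 (limma adjusted p = 0.0552), and Stub1 did not without RANKL replicate 2 or etelcalcetide replicate 1 (limma adjusted p = 0.0583 and 0.0598). The remaining gene that fell, Cip2a, at -0.42 on the log2 scale, did not pass when any 1 of the etelcalcetide replicates was left out (limma adjusted p = 0.0613, 0.0812 and 0.0673). Of the exon length of Stub1, 42.3% is shared with other genes.

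Among 14 tested genes of the SIN3 and histone deacetylase complexes that MXD and MNT proteins recruit, 2 rose, 3 fell and 9 did not pass (median -0.13), a called share below the 53.0% of all tested genes, and with library totals alone 3 rose and 2 fell. Leaving out 1 library at a time gave 0 to 2 higher and 2 to 5 lower, with none higher without RANKL replicate 2 or etelcalcetide replicate 1, and 5 lower without RANKL replicate 3. Rbbp7, a histone-binding subunit, fell from 129 ± 6.46 to 96.0 ± 3.22 FPKM and Hdac2, a deacetylase, from 25.9 ± 1.93 to 19.6 ± 1.33 FPKM. Ing1, a reader subunit, fell by 0.25 on the log2 scale but did not pass without RANKL replicate 2 (limma adjusted p = 0.0600) or with library totals alone (limma adjusted p = 0.0682). Suds3 rose by 0.21 on that scale and did not pass without RANKL replicate 2, etelcalcetide replicate 1 or etelcalcetide replicate 3 (limma adjusted p = 0.0544, 0.0722 and 0.0943). Sin3b, one of the scaffolds and the other gene that rose, at 0.29 on the log2 scale, did not pass without RANKL replicate 1 or 2 or etelcalcetide replicate 1 or 2 (limma adjusted p = 0.0855, 0.0906, 0.0617 and 0.122).

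For the PRC1.6 complex, in which MGA resides, 2 of 10 genes rose, 5 fell and 3 did not pass (median -0.15), where 26.0% of all tested genes rose and 27.0% fell, and with library totals alone 3 rose and 2 fell. Leaving out 1 library at a time gave 1 to 2 higher and 3 to 4 lower, with 3 lower without RANKL replicate 2 or any 1 of the etelcalcetide replicates and 1 higher without any library but RANKL replicate 3. Cbx3, a chromodomain protein, fell from 20.7 ± 2.60 to 13.4 ± 0.922 FPKM and Tfdp1, the dimer partner of E2F6, from 78.5 ± 3.01 to 58.2 ± 3.96 FPKM, in the same direction as Mga. Ring1, a ubiquitin ligase subunit, rose from 5.91 ± 0.490 to 8.46 ± 0.244 FPKM. Rnf2, its paralogue, had a log2 fold change of -0.35 and did not pass without etelcalcetide replicate 1 or 2 (limma adjusted p = 0.0801 and 0.0616), nor with library totals alone (limma adjusted p = 0.0598). The other genes called in this list, E2f6 at -0.24, Cbx1 at -0.16 and L3mbtl2 at 0.25 on the log2 scale, did not pass under several single-library omissions. The adjusted p from limma reached 0.0790 for E2f6 without etelcalcetide replicate 1, 0.129 for Cbx1 without etelcalcetide replicate 2 and 0.158 for L3mbtl2 without RANKL replicate 2. Of 12 germline genes that this complex is known to silence, 6 were at 0 reads in every library and only Tdrkh and Zcwpw1 were high enough to test. Tdrkh, a piRNA pathway gene of which 36.7% of the exon length is shared with Oaz3, fell from 15.01 ± 1.05 to 7.90 ± 0.338 FPKM, and Zcwpw1, a histone reader of meiosis, from 2.02 ± 0.231 to 1.12 ± 0.204 FPKM.

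Among targets of MLX with MondoA or ChREBP, 1 of 3 tested genes rose, where 26.0% of all tested genes rose. Txnip, an inhibitor of glucose uptake, rose from 167 ± 7.68 to 265.01 ± 33.3 FPKM (limma log2 fold change 0.58 with a standard error of 0.0890; adjusted p = 0.000679), and an antisense gene covers 19.4% of its exon length. Its partner in glucose control, Arrdc4, stood at 2.09 ± 0.279 and 2.16 ± 0.543 FPKM (95% interval of the log2 fold change -0.44 to 0.35) and Klf10 at 22.9 ± 0.656 and 25.4 ± 0.480 FPKM (limma adjusted p = 0.319, and 0.0414 with library totals alone). Pklr had 0 reads in all libraries. Esrra, the nuclear receptor ERR alpha, known as a MYC target in osteoclasts, rose from 7.93 ± 0.903 to 11.7 ± 0.328 FPKM (limma log2 fold change 0.48 with a standard error of 0.0859; adjusted p = 0.00165). Its coactivator gene Ppargc1b fell from 7.04 ± 0.218 to 5.81 ± 0.409 FPKM, and Ppargc1a had 1 read in all 6 libraries together.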

How the data were processed

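Total RNA of 6 RAW264.7 libraries was analysed, 3 per group, grouped and numbered by their titles. For every library the authors deposited a table of FPKM values. DESeq2 1.22.1, featureCounts 1.6.0, HISAT2 2.1.0, Trimmomatic 0.38, MultiQC, FastQC and CASAVA are listed per the submitters' processing notes, which do not say what each was used for. GRCh38, a human build, is named there, although each of the 55536 gene IDs matched mouse GENCODE M21, from which coordinates on GRCm38 (1-based) and merged exon lengths were taken. FPKM multiplied by exon length gave whole reads for 100% of values (tolerance 0.01 reads), with totals of 13742913 to 16264432 reads per library, and for a 1 kb gene a single read equals 0.0615 to 0.0728 FPKM. Counting intervals cover counting error only.

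Scaling factors (0.967 to 1.04) came from the trimmed mean of M-values of those reads, with 30% of M and 5% of A trimmed. The scaled FPKM plus a pseudocount of 0.1 was put on a log2 scale and fitted on group alone in limma 3.58.1 (R 4.3.3), whose prior variance followed the mean level. Genes with 0.5 FPKM and 10 reads in at least 3 libraries were tested, 11120 in all, and an adjusted p under 0.05 was called. Printed FPKM means and SDs are deposited values before scaling. The fit was tested on simulated data, in which smaller changes were recovered less often than larger ones and the share of false calls came out above the threshold.

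The members, the 11 gene lists and the tests were chosen with earlier results of these data known. Named genes were all members, every gene of the lists of other MYC-family and MLX partners, Pvt1, MLX targets and ERR alpha, and up to 4 tested genes with the smallest adjusted p of each other list; genes named beyond this to complete a small count were chosen after their values were seen. Some genes of the lists are not reported here by name. Alternatives covered scaling, pseudocount, filter, prior variance, replicate block, voom and leaving out each library. Python 3.11.15 with pandas 2.3.3, numpy 2.4.6 and scipy 1.17.1 handled the annotation and tables.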

Additional observations from a re-analysis of the deposited data

How the results depend on the processing

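The calls of Myc, Max, Mxd1, Mxd3, Mxd4, Mga and Mlx kept their direction and passed under all 16 alternatives, with log2 fold changes of -1.93 to -1.29 for Myc, 0.99 to 1.27 for Mxd4 and -0.31 to -0.20 for Max. The number of members that rose was 4 to 5 when 1 library was left out and 6 with library totals alone. Across all genes, library totals alone gave 3558 higher and 2272 lower in place of 2896 and 2998, and the median of all genes moved from -0.01 to 0.07. Over the 125 genes of the 11 lists, tested or not, 18 rose and 47 fell, where 26.0% and 27.0% of all tested genes did. The 125 include untested genes, so the counts and these shares are not on the same base. Of the 47 that fell, 30 were MYC-activated targets, a list whose direction was known from earlier results. Leaving out 1 library gave 11 to 18 that rose, with 11 without etelcalcetide replicate 1. Ccnd2 and Gadd45a could then no longer pass a filter that needs 3 libraries, as without either other etelcalcetide replicate. Eif4a1, Stub1, Suds3, Sin3b and L3mbtl2 were tested without replicate 1 but did not pass. Some uncalled genes changed sign. With library totals alone Arrdc4 was 0.0296 and Cdkn1a 0.0441. Leaving out 1 library gave -0.236 to 0.0492 for Arrdc4, -0.110 to 0.0466 for Cdkn1a and -0.0300 to 0.10 for Ndrg1; the cause was not tested. Deviations of same-numbered libraries from their group means correlated at 0.074, -0.019 and -0.030, so the replicate numbers were not taken to pair the samples. With the replicate block 5709 genes changed in place of 5894 and the same number of members, 7; of the named genes Suds3, L3mbtl2, Cbx1 and Eif4a1 no longer passed (limma adjusted p = 0.0526, 0.0696, 0.0640 and 0.0507). Depth was low for Mycl and Mxd3 among the members and for Pvt1, Gadd45a, Ccnd2 and Mlxipl.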

Other observations

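Of the 42 listed MYC-activated targets, 36 had a RefSeq promoter window, and 12 of these (33.3%) held CACGTG, against 12.3% of tested genes with a window. Among the 12 with the motif, which include Hspd1, 9 fell and the median log2 fold change was -0.25. Among the 24 without it 16 fell and the median was -0.26. Of all tested genes 27.0% fell, and the direction of this list was known from earlier results. This comparison was added after the data were seen and was not tested.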
